A study of Mus musculus with 6 samples.

Results

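The cells described here are secretory progenitors of mouse small intestinal organoids, chosen by their own counts: 434 of the 87954 cells kept from 6 single-cell RNA-seq libraries, or 0.493%. A cell was a member when it held at least 2 unique molecular identifiers (UMIs) of Atoh1 and its goblet genes (Fcgbp, Muc2, Clca1 and Zg16 together) were under 10 per 10000 UMIs. Fewer than 3 of the Paneth genes Defa17, Defa24, Mmp7, Ang4 and Itln1 could reach 5 per 10000, Chga and Chgb together had to be under 10 per 10000, and Neurog3 under 2 UMIs. The levels of these genes in the members are therefore a description of the choice and no result.

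ATOH1 is the basic helix-loop-helix transcription factor that starts the secretory programme in the intestinal crypt. A cell that makes it displays the Notch ligand DLL1 to its neighbours, and Notch signalling in those neighbours keeps Atoh1 off through HES1, so that they take the absorptive route. Cells with ATOH1 can still divide a few times before they become goblet, Paneth or enteroendocrine cells. SPDEF and CREB3L1 are transcription factors of secretory cells, SPDEF with a known role in goblet and Paneth differentiation.

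Organoids were grown from the duodenum of wild-type (WT) mice aged 10 weeks and were collected on day 3. WT organoids received the vehicle DMSO (-EIPA, replicates 1 and 2) or EIPA at 5 µM (+EIPA, replicates 1 and 2), an amiloride derivative that blocks sodium-proton exchange at the plasma membrane. The inducible-CRISPR-Cas9 organoids, WT cells infected with a lentiviral vector for Dox-inducible Cas9-GFP and a guide RNA and then grown from selected single clones, gave 1 library without Dox (-Dox) and 1 with Dox at 2 µg/mL (+Dox). Both carry the vector, and live cells were sorted for each library, for +Dox also by GFP, so that Dox, the edit, the GFP gate and the library cannot be told apart. The sources name 2 preparations for EIPA and 1 for CRISPR. With 2 libraries per group, the p-values of edgeR below rest mainly on a spread shared across genes. They measure little of a gene's own spread between the 2 preparations, however small they are.

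The members numbered 49 and 102 in the -EIPA libraries, 65 and 76 in the +EIPA libraries, 74 in -Dox and 68 in +Dox. Their median depth was 14795 to 27528 UMIs per cell, against 11468 to 16984 for the other cells of the same libraries, and their summed counts ran from 892177 to 2160235 UMIs per library. Other cells of like depth are those within the interquartile range of the members' UMIs in a library. Their median depth was 14296 to 24342 UMIs, below that of the members in every library, and the deepest members had no counterpart among them. Among the kept cells 854 barcodes occurred in more than 1 library, and among the members 0. Values per library are given below in the order -EIPA 1 and 2, +EIPA 1 and 2, -Dox and +Dox.

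Of 3280 cells with at least 2 Atoh1 UMIs, 13.2% met the rest of the rule. Among these 3280 cells 2354 were over the goblet limit, 2161 over the Paneth limit, 35 over the limit for Chga and Chgb and 49 over that for Neurog3, and a cell could be over several. The threshold on Atoh1 is close to the counts: 260 members stood at exactly 2 UMIs, 99 at 3, 45 at 4 and 30 at 5 or more, while 1706 cells with 1 Atoh1 UMI met all other limits. On the goblet limit, 129 members had 5 to 10 per 10000 UMIs, and 166 cells with 10 to 20 per 10000 were outside it and within the other limits. The Paneth limit did not fall evenly on the libraries. It was passed by 5.58%, 18.5%, 7.73%, 29.4%, 7.07% and 31.6% of all kept cells, and by 0.71%, 11.7%, 0.38%, 12.1%, 1.76% and 8.44% of the tenth of cells highest in absorptive genes, which should lack Paneth RNA. It therefore removed a larger share of cells from -EIPA 2, +EIPA 2 and +Dox, and the part of this in the results below was not tested.

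The label of the members was checked against its 4 markers. Dll1, the Notch ligand, stood at 85.2, 89.3, 65.7, 54.8, 88.5 and 56.9 CPM in the members and at 14.4 to 21.3 CPM in the other cells. Thinned to 5000 UMIs per cell, 25% to 39.4% of members held a Dll1 UMI, against 5.1% to 8.1% of other cells of like depth and 3.6% to 6.7% of the cells highest in absorptive genes (unthinned, 61.5% to 82.4% against 13.9% to 31.1% and 9.0% to 21.0%, and 4 members were too shallow to thin). Spdef was at 29.1, 44.7, 31.5, 26.7, 35.0 and 28.2 CPM, above the other cells at 8.25 to 14.6 CPM but below the cells over the goblet limit, where it ran from 70.2 to 106 CPM. Creb3l1 had the same order, with 54.8 to 90.6 CPM in the members, 25.7 to 30.3 in the other cells and 104 to 182 over the goblet limit. All 3 markers that the rule did not use were thus above the other cells in each library, and Dll1 came close to its level in the cells over the goblet limit (59.6 to 105 CPM), from which Spdef and Creb3l1 stayed apart. Each of these values comes from the cells that the rule chose, and none was tested.

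**Figure D1:**
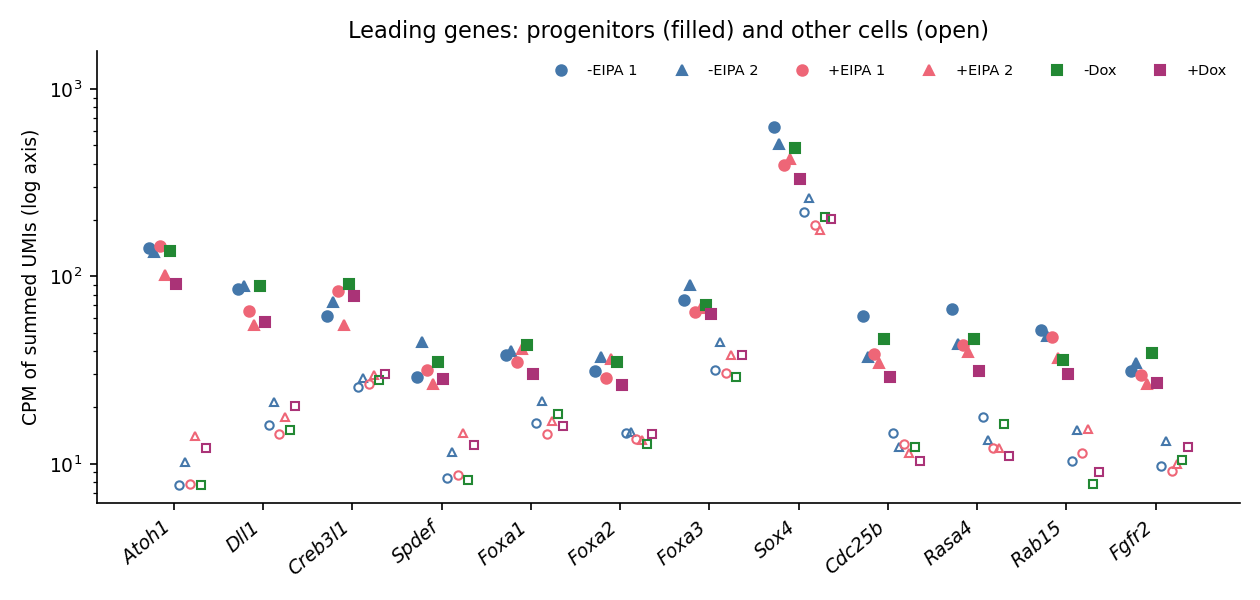
CPM of 12 of the genes that led the members, with 1 filled symbol per library for the members and 1 open symbol for the other cells of that library (log axis). In each gene shown the filled symbols lie above the open ones, with Atoh1, the gene of the rule, at 91.2 to 146 CPM against 7.71 to 14.1.

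Of 5631 genes at 20 CPM or more in the members or the other cells, 1029 (18.3%) were above the other cells in all 6 libraries and 913 (16.2%) below. Past 2-fold above in all 6 were 6 genes, namely Atoh1, Dll1, Rasa4, Cdc25b, Rab15 and Trit1. Rasa4 encodes a Ras GTPase-activating protein, Cdc25b a phosphatase that activates CDK1 at the entry into mitosis, Rab15 a small GTPase of endosomes, and Trit1 a tRNA-modifying enzyme. Cdc25b was at 61.6, 37.0, 38.5, 34.4, 46.4 and 29.2 CPM in the members and at 10.4 to 14.7 CPM in the other cells. In the cells over the goblet limit Cdc25b ran from 18.1 to 35.8 CPM, whereas Rasa4 was higher there (50.5 to 102 CPM) than in the members (31.5 to 67.3 CPM) in every library. The other genes among the 25 that led by their lowest library were Smim6, Fgfr2, Colca2, Creb3l1, Foxa1, Sox4, Spdef, Foxa2, Ube2c, Cenpe, Foxa3, Stmn1, Cog1, Slc12a8, Nusap1, Kif2c, Ndc80, Poc1a and Gm14207.

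Transcription factors of the secretory lineage formed one group among these. Of 22 listed, 13 were above the other cells in all 6 libraries and 4 below, and 13 reached 20 CPM, of which 10 were above. Foxa1, Foxa2 and Foxa3, forkhead factors of goblet and enteroendocrine differentiation, stood at 30.1 to 42.8, 26.4 to 37.0 and 63.0 to 89.8 CPM in the members, against 14.5 to 21.7, 12.7 to 14.8 and 29.2 to 44.7 CPM in the other cells. Sox4, a factor of tuft and enteroendocrine progenitors, was the most abundant member named, at 627, 509, 394, 425, 487 and 331 CPM against 177 to 262 CPM. For Sox4 the members lay between neighbouring populations: the cells with 2 or more Neurog3 UMIs had 957 to 1471 CPM, and the Atoh1 cells over the goblet or Paneth limit 151 to 223 CPM. Gfi1, which separates the goblet and Paneth route from the enteroendocrine one, was low at 2.42 to 9.75 CPM in the members and 1.42 to 2.67 CPM in the other cells. Of the 13 genes that the study followed as ATOH1 targets, a list taken from the study that includes Neurog3, a gene of the rule, 8 were above in all 6 libraries and 1 below. At 20 CPM or more 6 of 9 were above and 0 below, and of the secretory factors 10 of 13 and 0, beside 18.3% and 16.2% of all genes at that level. In every library both lists were higher still over the goblet limit and in cells with 2 or more Neurog3 UMIs. The ATOH1 panel summed to 479 to 627 CPM in the members, 690 to 1042 over the goblet limit and 1155 to 1644 in the Neurog3 cells. These sums include Neurog3, which the rule limits in the members and which defines the Neurog3 cells. Part of the panel's order against those cells therefore follows from the choice. The secretory factors summed to 1159 to 1494, 1281 to 1821 and 2530 to 3243 CPM.

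In the Notch pathway the genes at 20 CPM or more held 1 of 3 ligand genes and 1 of 4 receptor and target genes above the other cells in all 6 libraries, with median log2 ratios of 0.11 and 0.01, beside 18.3% above over all genes at that level. At any level, of 12 genes for ligands and their regulators 3 were above the other cells in every library (Dll1, Dll4 and Lfng) and 1 was below. The 12 genes summed to 145 to 215 CPM in the members and 173 to 274 CPM over the goblet limit, where they were higher in every library. Dll4 was at 6.73 to 17.1 CPM in the members against 2.38 to 4.02 CPM in the other cells. Lfng, a glycosyltransferase that modifies Notch receptors, was at 11.1 to 23.5 CPM against 3.99 to 7.68 CPM. Jag1 was at 1.12 to 4.63 CPM in the members and 4.69 to 6.84 CPM in the other cells. Of 16 receptor and target genes 1 was above in all 6 libraries and 4 were below, Hes1 among the latter, at 102, 96.5, 90.2, 104, 97.0 and 89.3 CPM against 115 to 165 CPM. Notch1 overlapped between the populations, at 13.1 to 24.3 and 12.2 to 17.9 CPM. The 434 members held 2.51% to 3.43% of all Dll1 UMIs of their libraries and 6.09% to 11.5% of those of Atoh1.

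Genes of G2 and mitosis were above the other cells as a group: each of 21 was above the other cells in all 6 libraries, with a median log2 ratio of 0.67. Against other cells of like depth each of the 21 was again above in all 6, with a median of 0.37. Those cells were still shallower at the median than the members, so that depth was matched only in part. Per cell, the 21 genes summed to medians of 30.3, 21.3, 23.6, 23.7, 33.7 and 24.4 per 10000 UMIs in the members, against 7.4, 7.8, 5.6, 4.5, 7.7 and 3.0 in the other cells and 16.2, 12, 10.9, 13.9, 18.9 and 6.7 in those of like depth. The cells with 1 Atoh1 UMI that met the rest of the rule were closer: their summed levels were 2561, 2906, 2168, 2408, 2670 and 2469 CPM, against 3488, 2793, 2881, 3051, 3744 and 3101 CPM in the members, and above the members in -EIPA 2. Of the members of a library, 68.6% to 84.2% lay above the other cells' median. Ube2c, an enzyme of the anaphase-promoting complex pathway, was at 392 to 481 CPM in the members and 176 to 268 CPM in the other cells, and Mki67 at 204 to 373 against 141 to 215 CPM. Of 20 S-phase genes 6 were above in all 6 libraries and 0 below, beside 18.3% above over all genes at 20 CPM or more. Against other cells of like depth 2 of the 18 S-phase genes at that level were above in all 6, with a median log2 ratio of 0.05, and the members' per-cell medians were below those of like depth in -EIPA 1, -EIPA 2 and -Dox. Of 18 stem cell genes 5 were above the other cells in all 6 libraries and 1 below. At 20 CPM or more 4 of 14 were above and 0 below, beside 18.3% and 16.2% of all genes. The stem cell receptor gene Lgr5 stood at 57.7 to 89.7 CPM against 47.4 to 59.6 CPM.

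**Figure D2:**
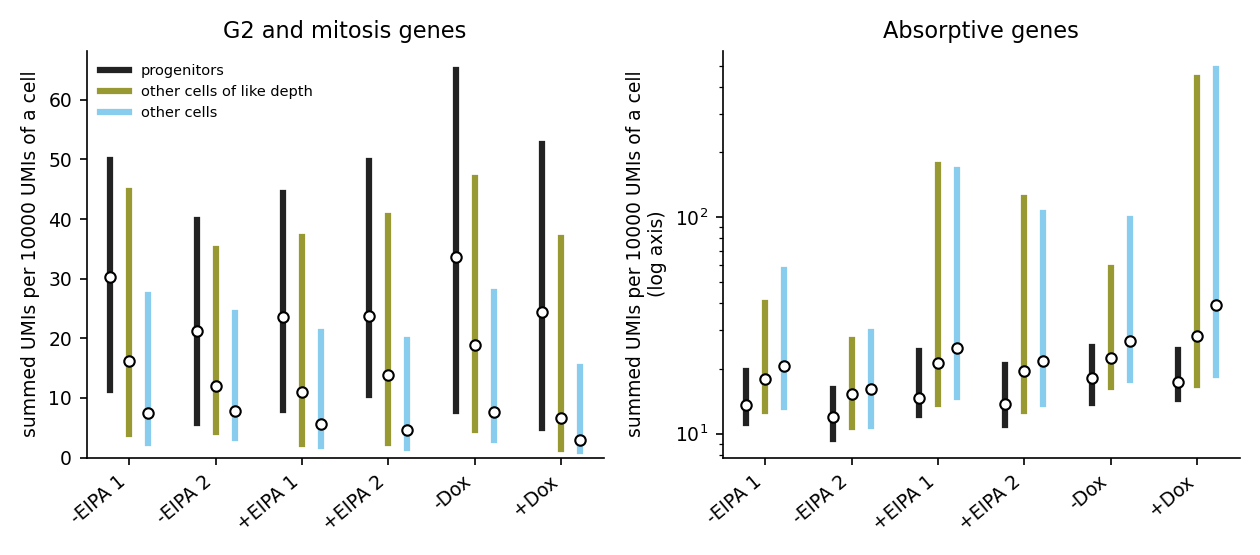
Summed UMIs per 10000 of a cell for 21 genes of G2 and mitosis (left) and 26 absorptive genes (right, log axis) in the members, the other cells of like depth and all other cells of each library; bars span the interquartile range over cells and circles mark medians. The members' medians are the highest of the 3 populations on the left and the lowest on the right in all 6 libraries.

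Genes of the other differentiated types were low or mixed. All 26 absorptive genes were below the other cells in all 6 libraries, with per-cell sums of 12 to 18.0 per 10000 UMIs at the median against 16.1 to 39.1. Of 20 Paneth genes outside the rule 11 were below in all 6 libraries and 2 above, and of 26 enteroendocrine genes outside the rule 20 were below and 0 above, as the limits on their partner genes favour. The median sum per cell of the Paneth list was nevertheless higher in the members. Medians were 6.3, 9.1, 8.7, 7.2, 9.4 and 18.2 per 10000 UMIs against 2.9, 5.0, 3.4, 5.8, 4.2 and 8.5 in the other cells, and 63.2% to 91.8% of members lay above the other cells' median. Pooled over cells, the list was lower in the members in every library except -Dox, at 939, 1547, 1766, 986, 1950 and 2604 CPM against 1587, 2471, 2268, 4765, 1816 and 5269 CPM. Goblet genes outside the rule had 4 of 22 above and 2 below. At 20 CPM or more, where 18.3% of all genes were above and 16.2% below, 4 of 14 goblet genes were above and 1 below, 2 of 12 Paneth genes above and 7 below, and 0 of 7 enteroendocrine genes above and 3 below. Yet 80.3% to 92.3% of members exceeded the other cells' median for these goblet genes, which was 7.6 to 13.5 per 10000 UMIs. Tff3, a goblet trefoil peptide, was at 1639 to 3580 CPM in the members and 1309 to 3559 CPM in the other cells. The 14 tuft genes summed to 3.6 to 20 CPM in the members and 12.2 to 63.0 CPM in the other cells. In +Dox they were higher in the members, at 18.1 against 12.2 CPM. The 15 immune, stromal and neural genes summed to 1.4 to 7.8 CPM, with 7 of the 15 at 0 in all 6 libraries.

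The upstream sequences of leading genes are shown because basic helix-loop-helix factors bind E-boxes, and CAGCTG and CAGATG were searched on both strands (CAGCTG reads the same on both) in the 250 bases before each RefSeq start, build GRCm38.p6. Of the 25 leading genes 23 matched the table. CAGCTG was in a window of 7 of the 23 (30.4%) and of 3979 of all 27025 genes (14.7%), and CAGATG in 5 (21.7%) and 4409 (16.3%). Atoh1, at chr6:64729125-64731245 on the plus strand, had neither in its window, which is given whole as the sequence before the gene that defines the members. The other lines give each CAGCTG, in capitals, with up to 12 bases on both sides, for 6 of these 7 leading genes and for Klf4, which is described with EIPA. The site of Rab15 is not printed. The windows with CAGCTG of Dll1, Rab15, Sox4, Cenpe and Gm14207 overlapped annotated exons, and that of Gm14207 lay within Dll4. Genes with several starts, such as Rab15 and Slc12a8, had several windows and so more chances of a match. The difference in shares was not tested. A match is a string of letters and no binding site.
Atoh1 window, chr6:64728875-64729124, strand +: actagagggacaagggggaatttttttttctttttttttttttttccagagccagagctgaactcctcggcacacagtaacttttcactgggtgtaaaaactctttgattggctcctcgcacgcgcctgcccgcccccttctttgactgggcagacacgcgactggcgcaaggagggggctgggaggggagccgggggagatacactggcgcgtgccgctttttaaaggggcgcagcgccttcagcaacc
Dll1, chr17:15377047-15377076, strand −: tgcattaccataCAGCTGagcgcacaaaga
Trit1, chr4:123016564-123016593, strand +: ttgccatggggaCAGCTGcttcggcgcatg
Sox4, chr13:28953893-28953922, strand −: cagcagaaatctCAGCTGtacttctagccc
Cenpe, chr3:135212396-135212425, strand +: aaaacttctctcCAGCTGagttctgaggct
Slc12a8, chr16:33517984-33518013, strand +: ttaagggctaggCAGCTGagcagtcagcct
Gm14207, chr2:119326330-119326359, strand −: ctcctgcagccgCAGCTGgaagatgccgga
Klf4, chr4:55532705-55532725, strand −: cgcCAGCTGcctggctggcgt
The match began 132 bases before the start in Dll1, 17 in Trit1, 211 in Sox4, 155 in Cenpe, 199 in Slc12a8, 150 in Gm14207 and 247 in Klf4.

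The members were also compared among themselves by their Atoh1 counts. In cells at 2, at 3 and at 4 or more UMIs, Dll1 ran from 40.8 to 90.0, from 46.5 to 111 and from 49.2 to 109 CPM over the libraries. The ranges overlapped, as did those of Spdef (21.2 to 36.5, 12.2 to 62.3 and 26.3 to 53.8 CPM). Genes of G2 and mitosis summed to 2558 to 3650, 2045 to 4008 and 2853 to 4385 CPM in these classes. Within a library, the class at 4 or more was above the class at 2 for these genes in 6 of 6 libraries, for Spdef in 5 and for Dll1 in 2, which is a description of small classes with no test. A class of 1 library held 7 to 66 cells. The classes also differed in depth. At 2 UMIs the median depth was 16160.5, 15697, 14435, 24073, 16341 and 36563 UMIs. At 4 or more it was 18280, 22353.5, 19492, 23693, 17410 and 22449.5. The part of depth in these orders was not tested.

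With EIPA the members' share of kept cells did not change beyond the spread. In -EIPA 1 it was 0.389% (95% exact Clopper-Pearson interval 0.288% to 0.514%), in -EIPA 2 0.560% (0.457% to 0.680%), in +EIPA 1 0.493% (0.380% to 0.627%) and in +EIPA 2 0.533% (0.420% to 0.667%). These intervals cover counting error only. Both +EIPA values lay between the -EIPA values, and the means of 0.474% ± 0.121 and 0.513% ± 0.028 (SD, n = 2) gave a ratio of 1.08. The two-sided exact permutation test gave p = 1, in a design whose smallest p is 0.333. The ratio was 1.27 within experiment 1 and 0.951 within experiment 2. It was 0.915 without -EIPA 1, 0.884 with a limit of 1 Atoh1 UMI, and 0.888 as a share of cells with 2 or more Atoh1 UMIs (1.27 and 0.526 within the experiments, 0.542 without +EIPA 1 and 1.23 without +EIPA 2). With a limit of 3 Atoh1 UMIs it was 1.25 (1.36 and 1.17 within the experiments, two-sided exact permutation p = 0.333, the smallest possible). The rule on thinned cells, which left 8 and 15 members in -EIPA and 20 and 4 in +EIPA, gave 1.21 (2.42 and 0.314). For all cells with 2 or more Atoh1 UMIs, whatever their other genes, the ratio was 1.46 (0.995 and 1.81). In the CRISPR libraries the share was 0.421% in -Dox and 0.563% in +Dox, which differ in their sort and are not compared.

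**Figure D3:**
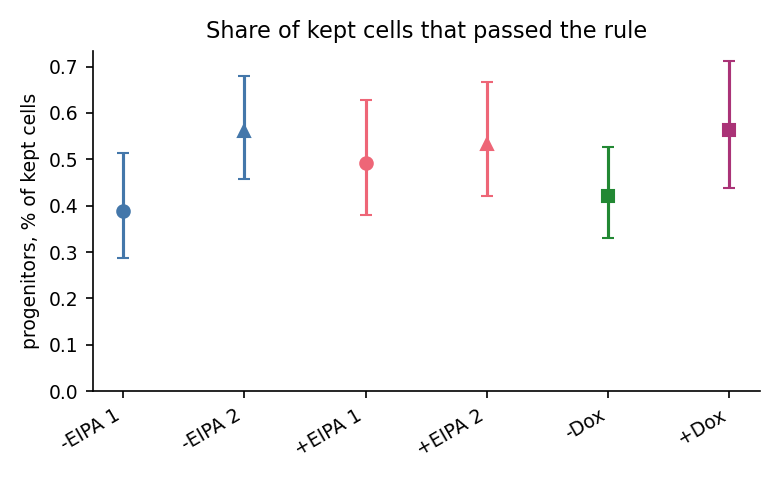
Members as a percentage of the cells kept in each library, with 95% exact Clopper-Pearson intervals (counting error only). The intervals of the 4 WT libraries overlap.

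Between +EIPA and -EIPA members, 27 of 8639 genes were higher (0.313%) and 2 lower (0.0232%) by edgeR's quasi-likelihood test on counts summed per library, at a Benjamini-Hochberg adjusted p under 0.05. The 2 lower genes were Fos and Edn1, and 11 of the 27 higher genes were in the absorptive list. DESeq2 called 22 higher and 2 lower. With the experiment as a replicate block, edgeR called 184 higher (2.13%) and 31 lower (0.359%), including all 29. The called genes depended on which cells were counted: 3 remained (Fos, Edn1 and Apoa1) when members with more absorptive RNA than the median other cell were left out, which lowers absorptive values in the remaining members by construction, and without cells of very high depth 7 remained. In such sums, fewer cells with a transcript and less of it per cell cannot be told apart.

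Fos, an immediate early gene for a subunit of the AP-1 transcription factor, stood at 303 and 309 CPM in the -EIPA members and at 96.3 and 121 CPM in the +EIPA members. The groups did not overlap. On the log2 scale the members differed by -1.41 (SE 0.18), which passed edgeR's test at an adjusted p = 0.00856. Fos was spread over cells, with 38 of 49 and 83 of 102 members holding a UMI without EIPA and 39 of 65 and 56 of 76 with it, and its most charged cell gave at most 8.8% of the UMIs. The other cells went from 313 and 391 to 122 and 140 CPM, a log2 fold change of -1.35 that was not called (adjusted p = 0.237 by edgeR). The difference between the changes of members and other cells was -0.09 on the log2 scale (SE 0.14, adjusted p = 1 by edgeR). Edn1, which encodes the peptide endothelin-1, was at 38.1 and 44.1 CPM in the -EIPA members and at 5.25 and 8.24 CPM in the +EIPA members, lower by edgeR at an adjusted p = 0.00812 (log2 fold change -2.47, SE 0.30). The lower values rest on 6 and 17 UMIs. In the other cells Edn1 went from 33.4 and 59.1 to 15.9 and 16.1 CPM. Of 15 immediate early genes 13 were tested and 1 was called, Fos. The median log2 fold change of the list was -0.43, beside 0.02 over all genes tested. In the other cells the median of the list was -0.65. With the replicate block 7 were called lower (Fos, Fosb, Jun, Jund, Atf3, Dusp1 and Klf6).

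Klf4, a zinc finger factor of goblet cell differentiation at chr4:55527143-55532466 on the minus strand, was at 99.8 and 76.0 CPM in the -EIPA members and at 31.5 and 36.8 CPM with EIPA. The groups did not overlap. Its log2 fold change of -1.24 (SE 0.22) missed the threshold, with an adjusted p = 0.0534 by edgeR, and passed it with the replicate block (adjusted p = 4.97e-06). Klf4 UMIs came from 32 of 49 and 62 of 102 members without EIPA and 26 of 65 and 39 of 76 with it, and at most 13.5% of them from 1 cell. In the other cells Klf4 ran from 24.1 to 29.6 CPM in the 4 WT libraries. The change in the members was the larger one, by -1.18 on the log2 scale (SE 0.19), which passed the test of the difference (adjusted p = 1.58e-06 by edgeR). That fit shares the spread of a gene between members and other cells. The members' sums come from far fewer cells, so its p-values can be too small. In the cells over the goblet limit Klf4 went from 198 and 167 to 144 and 125 CPM.

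**Figure D4:**
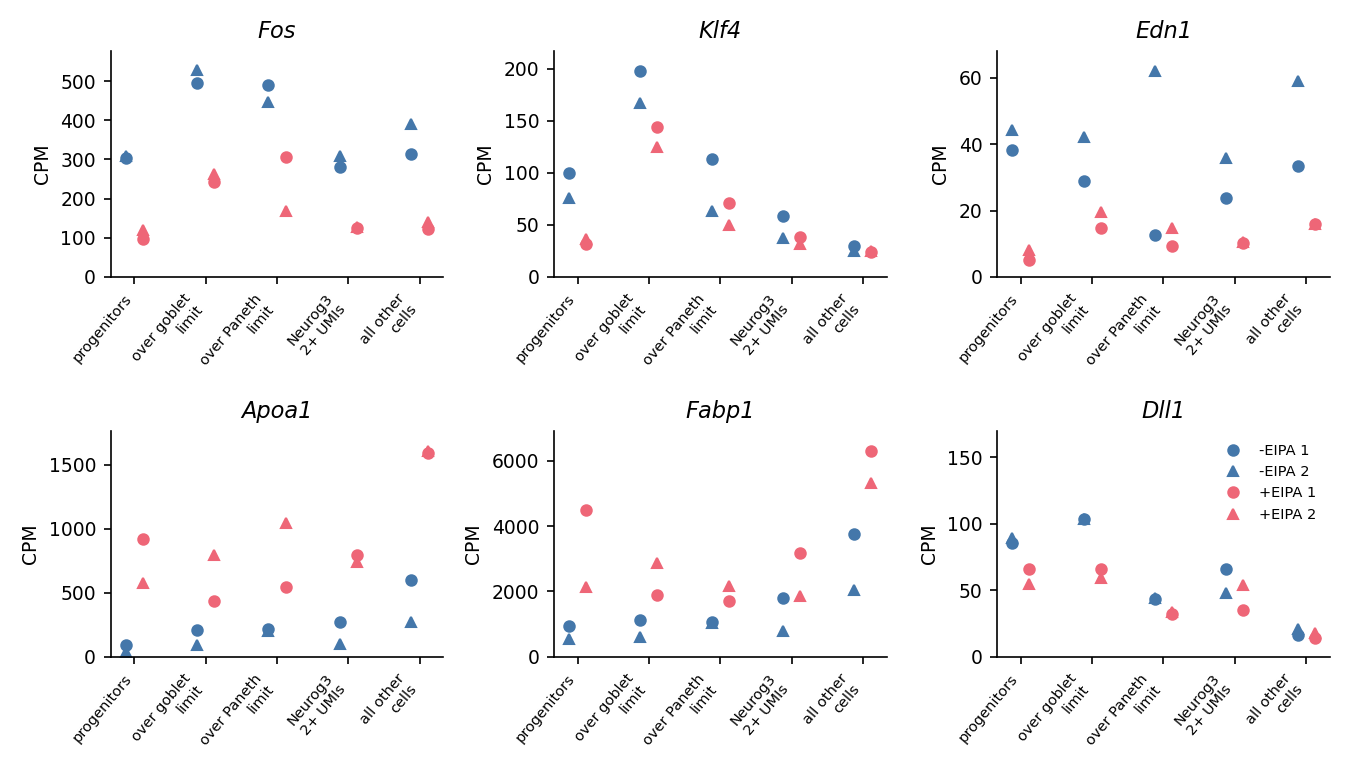
CPM of 6 genes in the -EIPA libraries (blue) and the +EIPA libraries (red), as 1 symbol per library, circles for replicate 1 and triangles for replicate 2, in the members and in 4 other populations, each axis starting at 0. Fos is lower with EIPA in each population shown, whereas Klf4 in all other cells stays between 24.1 and 29.6 CPM.

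Apoa1, which encodes the main protein of high-density lipoprotein, led the higher genes by level among the 10 of largest change: 95.3 and 41.1 CPM in -EIPA, 921 and 578 CPM in +EIPA. These values did not overlap, and edgeR gave an adjusted p = 0.00116 for a log2 fold change of 3.60 (SE 0.34). The rest of these 10 were Cyp2c29, Gda, Slc5a4b, Apoc2, Apoc3, Cyp3a11, Gsta2, Gm3776 and Mt4, which include cytochrome P450, glutathione transferase and apolipoprotein genes. Cyp2c29 and Slc5a4b rested on 1 UMI in each -EIPA library and Gda on 0 and 1, so that their fitted log2 fold changes of 5.47, 4.37 and 4.87 depend on the prior count and are no bound. The other 6 had 3.04 to 3.85. With EIPA 54.5% and 57.4% of the 44 and 61 Cyp2c29 UMIs came from 1 cell. Reads of the related genes Gsta1, Gsta2 and Gm3776, and of the Cyp3a genes, may have been split between them. Of 26 absorptive genes 25 were tested, and all 25 had a higher fitted level with EIPA. Of them 11 were called higher and 0 lower (among the 11 Apoa1, Apoa4, Apoc2, Apoc3, Alpi, Fabp1, Krt20, Gsta1, Adh6a and Guca2b). The median log2 fold change of the list was 1.82 beside 1.12 in the other cells. With the replicate block 21 were called. Fabp1, the fatty acid carrier, rose from 954 and 541 to 4492 and 2138 CPM (log2 fold change 2.22, SE 0.33, edgeR adjusted p = 0.0187).

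Much of the RNA of this list sat in few members. The median member had an absorptive sum of 13.6 and 12 per 10000 UMIs without EIPA and 14.6 and 13.7 with it, while the highest member had 373 and 158 without and 1047 and 583 with it. The 5 members richest in these genes held 62.9% and 44.0% of the list's UMIs without EIPA and 60.4% and 67.2% with it. Members above the other cells' median numbered 12 and 26 without EIPA and 16 and 17 with it, 22.4% to 25.5% of a library in both groups. Their median depth was 13143 and 17902.5 UMIs without EIPA and 24723 and 35982 with it, against 16771, 16510, 14103 and 20108 for the rest. Without them the median log2 fold change of the list was 0.22 over 19 genes, and that of Apoa1 1.73 (adjusted p = 0.0209 by edgeR). These members were left out by the same genes, so that lower values follow from the removal. Single cells did not hold all of the Apoa1 UMIs: 21 of 49 and 35 of 102 members had one without EIPA and 44 of 65 and 62 of 76 with it, and the most charged cell gave 41.2%, 30%, 25.4% and 32.6% of them. Of the members deep enough to thin, 16.7%, 10.1%, 41.5% and 63.2% had 2 or more Apoa1 UMIs at full depth, beside 23.5%, 15.6%, 48.7% and 62.7% of other cells of like depth. At least 1 Apoa1 UMI was held by 41.7%, 35.4%, 67.7% and 81.6% of these members at full depth. In other cells of like depth it was 47.6%, 37.5%, 73.2% and 84.1%. Thinned to 5000 UMIs per cell, an Apoa1 UMI was held by 27.1%, 16.2%, 38.5% and 44.7% of members. Of other cells of like depth 27.4%, 19.4%, 48.7% and 49.7% then held one. Apoa1 also moved in the cells over the Paneth limit, which in -EIPA 2 and +EIPA 2 took in 18.5% and 29.4% of all kept cells, from 219 and 202 to 547 and 1042 CPM. Removing the tenth of cells with the highest doublet scores took 18.4% to 30.8% of a library's members and 9.27% to 9.88% of its cells, and edgeR then made 17 calls with EIPA, 12 of them among the 29. The part of free RNA was not tested.

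**Figure D5:**
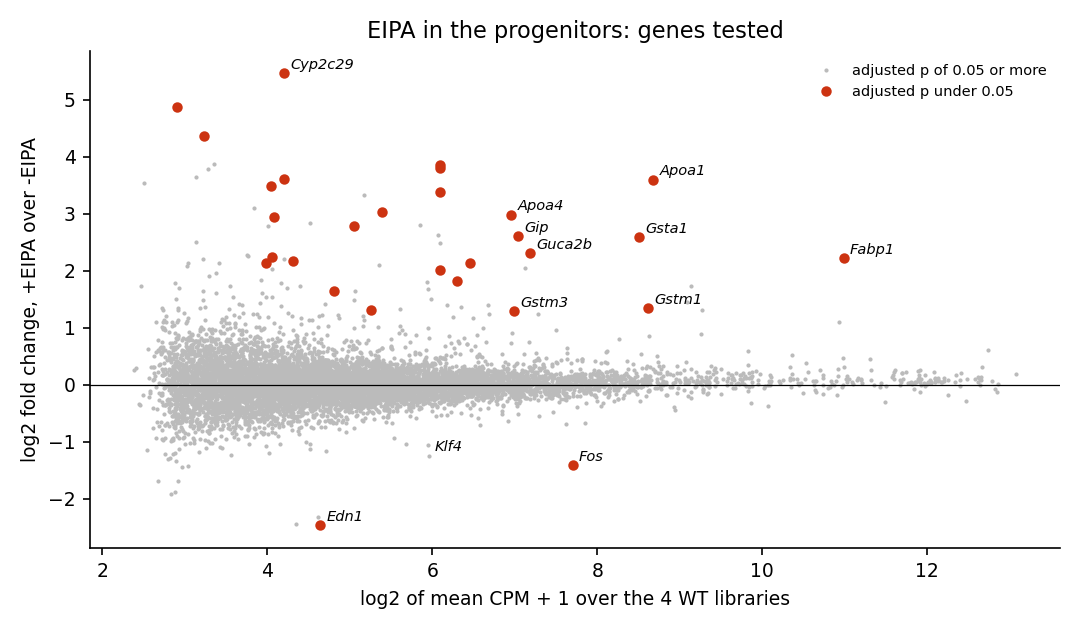
Log2 fold change with EIPA in the members against log2 of mean CPM + 1 over the 4 WT libraries, with 1 point per gene tested (8639) and the 29 genes at an adjusted p under 0.05 in red. The red points are 27 above 0 and 2 below, Fos and Edn1; Klf4 is named although it missed the threshold.

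Genes of the ATOH1 programme did not pass the test. Dll1, at chr17:15367354-15376872 on the minus strand, had 85.2 and 89.3 CPM in the -EIPA members and 65.7 and 54.8 CPM in the +EIPA members. These values did not overlap, but the log2 fold change of -0.48 (SE 0.19) had an adjusted p = 0.85 by edgeR. The difference on the log2 scale was -0.36 for Spdef (SE 0.26), 0.05 for Creb3l1 (SE 0.23) and -1.70 for Gfi1 (SE 0.51, adjusted p = 0.486 by edgeR), the last from 6.73 and 9.75 to 2.63 and 2.42 CPM. For Hes1 it was 0.05 (SE 0.18). No call was made by edgeR among 6 tested genes of Notch ligands, 7 of receptors and targets, 12 of the ATOH1 panel, 16 secretory transcription factors, 16 goblet genes, 9 Paneth genes, 17 stem cell genes, 20 S-phase genes, 21 genes of G2 and mitosis, 14 CDK inhibitors and D cyclins, 13 pH regulators, 8 regenerative genes or 18 genes of folding in the endoplasmic reticulum. Of 8639 genes tested 422 had an unadjusted p under 0.05 by edgeR, which is near the share of 0.05 that unchanged genes alone would give. As 0.313% of all genes were called higher and 0.0232% lower, lists of this size would hold few or no calls at that share. In simulated counts edgeR recovered 56.1% of log2 changes of 1, so that a list without a call may still hold changes. The simulation gave every gene the same spread and changed only genes at 20 CPM or more. Recovery may be lower for genes of larger spread or lower level. In the enteroendocrine list 3 genes were tested, and 1, Gip, was called higher, at 150 and 301 CPM in the +EIPA members, where 1 cell held most of its UMIs in each library, against 16.8 and 54.4 CPM in the -EIPA members. The replicate block added Klf4 and Sox4 (lower) among the transcription factors, Olfm4 (lower) among the Notch targets, Cdkn1a (higher) and Btg2 (lower) among the cycle regulators and Slc26a6 (higher) among the pH regulators. It also added Sct, Cck, Spink4 and Defa30 (higher), and of the regenerative genes Clu, Ly6a, Anxa2, Anxa3 and Areg (higher) and Ccn1 (lower). The median log2 fold change was -0.02 for G2 and mitosis and 0.01 for S phase.

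The change with EIPA differed between members and other cells for 29 of 14717 genes by edgeR, 21 with the larger value in the members (0.143%) and 8 with the smaller (0.0544%). All of these calls carry the limit of that fit given above with Klf4. Absorptive genes gave 8 of the 21, with Apoa1 at a difference of 1.53 (SE 0.15) on the log2 scale. All 8 turned negative without the members rich in absorptive RNA, when Apoa1 was at -0.39, but the removal was made in the members alone and lowers these differences by construction. Klf4 was at -1.18 and stayed negative in every alternative run, from -1.03 to -1.30, and it lost its call only with a limit of 3 Atoh1 UMIs. Several hormone and Paneth genes in the list rest on single cells. In +EIPA 2 a single member held 96.7% of the Cck UMIs of all members, and single members held 88.3% of those of Sct and 74.5% of those of Ghrl. For Gip it was 88.9% in +EIPA 1 and 89.1% in +EIPA 2, and for Mptx2 97.4% in -EIPA 2. Fcgbp, a gene of the rule, was also among the calls and is given as a level, 266, 278, 240 and 247 CPM in the members.

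In the CRISPR libraries, with 1 library per condition and no test, 28 of 5855 genes at 20 CPM or more were past 2-fold higher in +Dox members (0.478%) and 17 past 2-fold lower (0.290%). S100a6, a calcium-binding protein gene, was at 67.1 CPM (95% exact Poisson interval 54.2 to 82.1) in -Dox and 538 CPM (508 to 570) with Dox, where 1 cell held 42.2% of its UMIs. Its log2 ratio of 2.91 became 1.93 with a limit of 3 Atoh1 UMIs and 2.30 with its top cell lowered to the second. With the rule on thinned cells, which left 19 members in -Dox and 7 in +Dox, the ratio was 0.38. S100a6 also varied between the WT preparations, at 133 and 268 CPM in replicates 1 and 596 and 1469 CPM in replicates 2. Scgb2b27, 2210407C18Rik, Areg and Ang4 were next, Ang4 being a gene of the rule. On the log2 scale 2210407C18Rik turned from 1.85 to -1.18 with the rule on thinned cells, again from 19 and 7 members. Areg, an EGF receptor ligand, went from 33.5 to 132 CPM. Scgb2b27 rested on 1 UMI in -Dox and 48 in +Dox. Its log2 ratio of 2.25 was 3.76 with 1 CPM in place of 5 CPM added to both sides, and it was under 20 CPM with a limit of 3 Atoh1 UMIs, with the rule on thinned cells and with its top cell lowered to the second. Lower in +Dox by the largest ratios were Dmbt1, Fosb, Rbp7, Atf3 and Fos. Dmbt1, a mucosal scavenger receptor gene, was at 136 CPM (117 to 156) without Dox and 24.1 CPM (18.0 to 31.6) with it, and Fos at 427 CPM (393 to 462) and 144 CPM (129 to 161). The Poisson intervals given here cover counting error only, and not the spread between cells or between libraries.

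In the other cells of the CRISPR libraries the log2 ratio was 1.40 for S100a6 beside 2.91 in the members, 1.09 for Scgb2b27 beside 2.25, -1.81 for Dmbt1 beside -2.27, -0.91 for Atf3 beside -1.53, and -1.47 for Fos beside -1.53. It was 1.92 for 2210407C18Rik beside 1.85, 2.58 for Ang4 beside 1.79, 1.36 for Areg beside 1.83, -1.50 for Fosb beside -2.12, and -2.16 for Rbp7 beside -1.99. These 10 genes were chosen for their ratios in the members, which favours a larger ratio there. The median over the absorptive list was 1.09 in the other cells and 0.26 in the members. The differences between the populations have no test. Of the lists, 4 of 22 absorptive genes with a value were past 2-fold higher (Apoa1, Apoc2, Apoc3 and Gsta1), 3 of 11 immediate early genes past 2-fold lower (Fos, Fosb and Atf3), and 0 of 13 secretory transcription factors and 0 of 21 genes of G2 and mitosis past it in either direction. Past it were also 1 of 7 Paneth genes (Defa30, higher), 1 of 4 regenerative genes (Areg, higher) and 1 of 9 pH regulators (Slc16a3, lower). Over all genes 0.478% were past it higher and 0.290% lower. Dll1 was at 88.5 CPM in -Dox and 56.9 CPM in +Dox, and Klf4 at 62.1 and 40.7 CPM.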

How the data were processed

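Counts were used as the authors deposited them: raw UMI counts per gene and cell barcode in 10x Genomics 3' libraries, aligned and counted with Cell Ranger 6.1.2 (build mm10, GRCm38, per the submitters' processing notes and the methods), without normalization. The files held 123544 barcodes. A cell was kept if it had 1000 genes or more and less than 20% of its UMIs on mitochondrial genes, limits set here. The members and gene lists were chosen with earlier results of these data known.

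UMIs were summed per library over members and over all other cells, and CPM are these sums scaled to 1000000. The quasi-likelihood test of edgeR 4.0.16 in R 4.3.3 compared +EIPA with -EIPA, after TMM scaling and filterByExpr, with p-values adjusted by Benjamini-Hochberg over every gene in the fit (threshold 0.05). The difference between populations was an interaction term with the library as a block. It used a spread shared by both populations, although the members' sums rest on far fewer cells. DESeq2 1.42.0 was an alternative. Ratios of levels had 5 CPM added to both sides. Both fits were tested on simulated counts with the same spread for every gene, and with changes set in genes at 20 CPM or more. For log2 changes of 1, edgeR recovered 56.1% with EIPA and 79.8% in the interaction, and DESeq2 31.8% with EIPA. Genes were named by a fixed rule: the genes of the choice, called or most abundant list members, the 10 largest called changes per direction, the 5 largest ratios with Dox per direction, and the 25 leading genes. Jund, Slc26a6 and other list genes were named for their role or for the replicate block.

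In the study's source data replicate numbers mark experiments. Libraries with the same number deviated together from the means of their groups, with a correlation of 0.269 over 8639 genes, which with 2 libraries a group is equal for both pairs by construction. The block was an alternative and is given where it changed a call.

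Scrublet (scanpy 1.11.5) set thresholds that marked 0.0476% of -EIPA 1 and 0% of +EIPA 1, so it had not worked there. Doublets were kept, and as an alternative chosen after seeing the data the highest 10% of scores were removed. A few items are not reported here. Gene positions are from the GRCm38 annotation and upstream sequences from RefSeq (GRCm38.p6).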

Additional observations from a re-analysis of the deposited data

Results flagged for a closer look

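Each gene here was named because its change with EIPA differed between the members and the other cells by edgeR's interaction term. Values are differences of log2 fold changes, members minus other cells. The largest were Mptx2 at -5.05, Ghrl at 3.40, Cyp2c29 at 3.22, Cck at 2.76, Klf2 at 2.46, AY761184 at 2.46, Gip at 2.27, Cym at 2.14, Sct at 1.90 and Apoc3 at 1.56. Of these, 1 cell held 97.4% of the UMIs of Mptx2 in -EIPA 2, 66.7% of those of AY761184 in +EIPA 1 and, as given above, most of those of Ghrl, Cck, Gip and Sct in a +EIPA library. Its part in the differences was not tested beyond the alternatives below.

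The absorptive genes were Apoa1 at 1.53, Apoc2 at 1.32, Apoa4 at 1.23, Fabp1 at 1.00, Gsta1 at 0.91, Sis at 0.71 and Rbp2 at 0.59. Klf4, the transcription factor, was at -1.18, and Tff3, the goblet trefoil peptide, at -0.58. Tff3 went from 1309 to 1480 CPM in the other cells of experiment 1 and from 1671 to 2015 CPM in its members. In experiment 2 it went from 1677 to 2871 CPM in the other cells and from 2140 to 1639 CPM in the members, and the difference turned to 0.058 without +EIPA 2.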

How the results depend on the processing

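The 29 genes called with EIPA became 140 without a filter on low counts, 215 with the replicate block, 17 without the highest doublet scores, 7 with a limit of 3 Atoh1 UMIs, 7 without cells of very high UMIs, 2 with the rule applied to thinned cells and 3 without absorptive-rich members, and 27 to 84 when 1 library was left out, with 84 without +EIPA 1, 83 without +EIPA 2 and 62 without -EIPA 1. Of the 29 genes with a value, 15 of 16 had their sign without absorptive-rich members and 16 of 17 without the highest doublet scores. Without absorptive-rich members Gip was at -0.51 on the log2 scale (2.60 with all members), Sct at -0.38 (2.48) and Hes1 at -0.01 (0.05). The 29 interaction calls became 6 with a limit of 3 Atoh1 UMIs, 50 without the highest doublet scores and 77 without absorptive-rich members, and 17 to 36 when 1 library was left out, 17 being without -EIPA 2. The replicate block gave 43. The 45 genes past 2-fold with Dox became 71 with 1 CPM added, 23 at 50 CPM or more, 252 with a limit of 3 Atoh1 UMIs, 91 without the highest doublet scores, 1663 on thinned cells and 68 without absorptive-rich members. The share ratio of 1.08 was 0.884 with a limit of 1 Atoh1 UMI, 0.888 with Atoh1 cells as denominator (0.542 without +EIPA 1, 1.23 without +EIPA 2), 1.25 with a limit of 3 Atoh1 UMIs, 1.21 on thinned cells, and 0.915 to 1.32 when 1 library was left out (0.915 without -EIPA 1). All values on thinned cells rest on few members: 8 and 15 in -EIPA, 20 and 4 in +EIPA, 19 in -Dox and 7 in +Dox.

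Interaction differences that turned sign were, with a limit of 3 Atoh1 UMIs, Ghrl (-0.40), Cck (-0.72) and Sct (-0.15); with the top cell of each gene lowered to the second, Cck (-0.44); without the highest doublet scores, Gip (-0.83); and when a library was left out, Klf2 (-0.68 to 3.17 over the libraries), Sct (-0.45 to 2.81) and Tff3 (-1.20 to 0.058) without +EIPA 2 and AY761184 (-0.15 to 3.85) without +EIPA 1. Without absorptive-rich members, a removal made in the members alone that lowers absorptive values by construction, they were Cck (-1.11), Gip (-0.77), Sct (-0.87), Apoc3 (-1.28), Sis (-0.65), Fabp1 (-0.64), Apoc2 (-1.58), Apoa1 (-0.39), Apoa4 (-0.54), Gsta1 (-0.77) and Rbp2 (-0.93). The cause of the other changes was not tested. The removals by doublet score, of absorptive-rich members and the lowered top cell were chosen after seeing the data, and the planned removal of called doublets was not run because the thresholds had not worked. Where a library was left out, its lone partner was taken to have the spread of the other group. With 49 to 102 members a library, genes at a few CPM rest on a few UMIs.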
